A study of Mus musculus with 15 samples.

Results

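Retinoic acid synthesis and signalling were followed in mouse kidney through 8 genes, taken by symbol from a table of 23284 genes: Rbp4, Dhrs3, Aldh1a1, Aldh1a3, Aldh1a7, Cyp26b1, Rara and Rxra. The set was chosen by measured values: Aldh1a3 was lower in FPKM in the L-ala libraries than in the vehicle libraries, so that difference is described below and no test of it supports anything. The samples were kidneys of WT mice, all labelled with a time of 2 h, in 3 groups of 5 libraries: Vehicle, L-ala and D-ala. L-ala and D-ala are the usual abbreviations of the mirror-image forms of the amino acid alanine. The dose, the route, the make-up of the vehicle and the age of the mice were not given in the sources used here, and whether doses matched is therefore unknown. The labels do not say that the libraries of a group came from separate animals, and p-values measure the spread between these libraries, which may be technical in part.

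Retinol (vitamin A) travels in plasma bound to Rbp4, is filtered by the kidney and is taken back up by the proximal tubule through the receptor Lrp2 (megalin). Inside cells retinol is oxidised to retinal by retinol dehydrogenases such as Rdh10, and retinal is reduced back to retinol by Dhrs3. Retinaldehyde dehydrogenases of the Aldh1a family oxidise retinal to retinoic acid, which binds nuclear receptors such as Rara that act as pairs with Rxra, and Cyp26 enzymes such as Cyp26b1 break retinoic acid down.

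Values are FPKM, fragments per kilobase of transcript scaled to library depth, and levels of different genes can be compared because they are per transcript length. Differences are of log2(FPKM + 1), which understates the change of genes near or below 1 FPKM. Libraries held between 7.57 and 10.9 M reads by their recovered depth. Proximal tubule markers were abundant in every library, with a summed level of at least 74984 FPKM over 8 genes, while 4 of 9 adrenal markers were at 0 in every library. A library of bulk tissue cannot tell fewer cells of a type from less RNA per cell. Some libraries weighed on the number of genes called over the whole table: leaving out vehicle replicate 4 lowered the count for L-ala against vehicle from 1297 to 321, and leaving out L-ala replicate 5 raised it to 2580.

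The 8 genes spanned a wide range of levels. Dhrs3 was the most abundant, with 98.1 to 154 FPKM over the 15 libraries, followed by Rxra with 24.9 to 32.2 FPKM. Aldh1a7 (13.3 to 25.9 FPKM) and Aldh1a1 (6.96 to 13.3 FPKM) came next, then Rara (4.12 to 8.11 FPKM), Aldh1a3 (0.910 to 7.04 FPKM), Rbp4 (0.154 to 4.07 FPKM) and Cyp26b1 (0.0610 to 0.684 FPKM). The order Dhrs3, Rxra, Aldh1a7, Aldh1a1 held in 15 of 15 libraries. Aldh1a1 exceeded Rara in 14 libraries and Rara exceeded Aldh1a3 in 14. Aldh1a3 and Rbp4 did not separate: Aldh1a3 was the higher in 10 of 15 libraries, among them all 5 of vehicle but only 2 of D-ala.

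**Figure D1:**
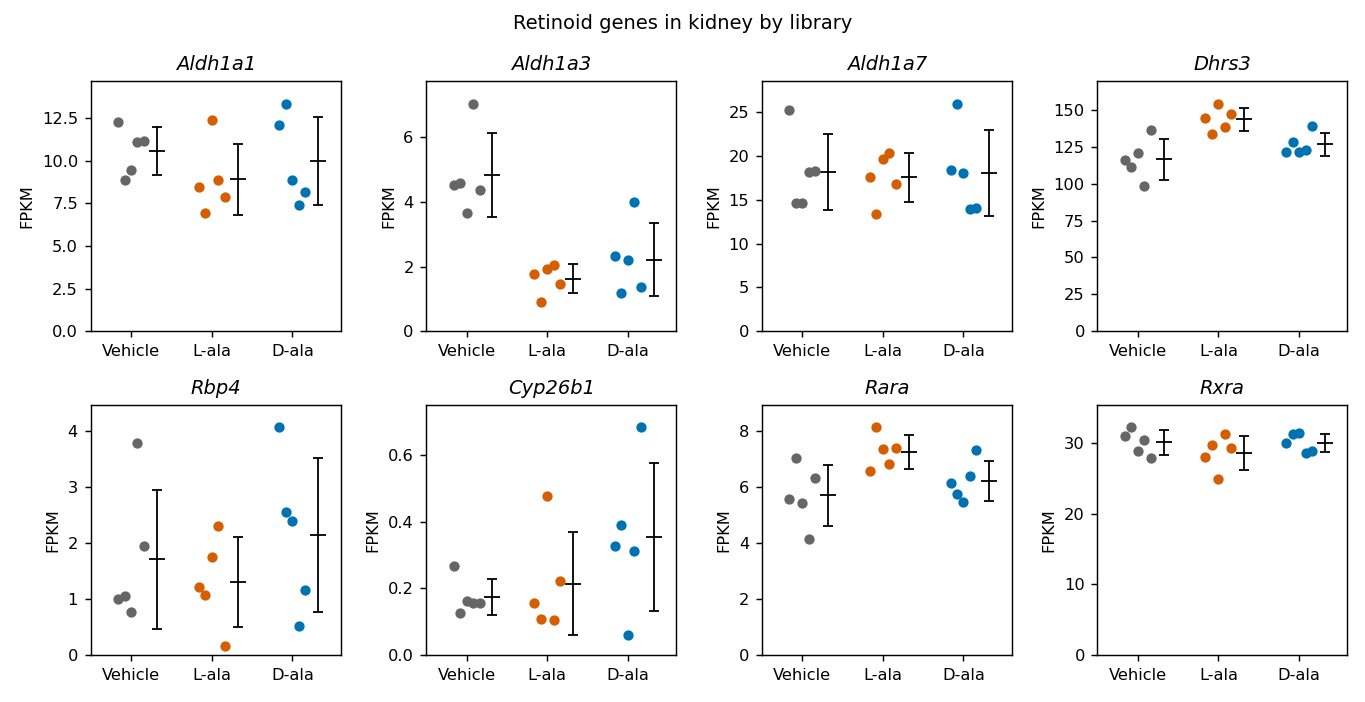
Level of each of the 8 genes in FPKM (vertical axes, linear, from 0) by group (horizontal axes); each point is 1 library, and the bar beside the points is the mean with its SD (n = 5). The 5 L-ala points of Aldh1a3 lie between 0.910 and 2.05 FPKM, below all 5 vehicle points, whereas the groups of Aldh1a7 and Rxra lie over one another.

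Aldh1a3 (chromosome 7, 66390890 to 66427517, minus strand, GRCm38), a retinaldehyde dehydrogenase, fell in D-ala against vehicle. The 5 vehicle libraries read 4.53, 4.57, 3.65, 7.04 and 4.38 FPKM, a mean of 4.83 ± 1.29 (SD, n = 5). The 5 D-ala libraries read 2.33, 1.18, 2.199, 4.01 and 1.37 FPKM, a mean of 2.22 ± 1.12 (SD, n = 5). Of the D-ala libraries 4 lay below every vehicle library, and replicate 4, the highest, overlapped only the lowest vehicle library. The D-ala mean was 0.459 of the vehicle mean. On the log2(FPKM + 1) scale the difference was -0.90 (SE 0.20, 95% interval -1.33 to -0.47, limma adjusted p = 0.0101). The call held in each of the 15 fits that left out 1 library, with differences from -1.07 to -0.77. This comparison shares its vehicle libraries with the one that led to the choice of Aldh1a3, and that choice favours high vehicle values. The difference, its p and the refits are favoured in the same way. The D-ala values add to that observation only through the D-ala libraries.

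In the L-ala libraries Aldh1a3 read 1.77, 0.910, 1.92, 2.05 and 1.46 FPKM, a mean of 1.62 ± 0.455 (SD, n = 5). All of them lay below all vehicle libraries, which is the observation the gene was chosen for, and the mean was 0.335 of the vehicle mean. The difference from vehicle was -1.15 on the log2(FPKM + 1) scale, and -1.58 when the scaled count column replaced FPKM for Aldh1a3. D-ala and L-ala libraries overlapped for this gene: 3 of 5 D-ala libraries lay above every L-ala library, and the D-ala minus L-ala difference was 0.25 with a 95% interval from -0.18 to 0.68. Because the L-ala values chose Aldh1a3, this difference is given without a test.

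Aldh1a1 and Aldh1a7, the other members of the aldehyde dehydrogenase family in the set, were not called in either tested comparison. Aldh1a1 (chromosome 19, 20492715 to 20643465, plus strand) is a retinaldehyde dehydrogenase, and Aldh1a7 (chromosome 19, 20692953 to 20727562, minus strand) is its rodent paralog on the same chromosome. Aldh1a1 had 10.6 ± 1.40 FPKM in vehicle, 8.91 ± 2.07 in L-ala and 9.98 ± 2.58 in D-ala (SD, n = 5). Aldh1a7 had 18.2 ± 4.31, 17.5 ± 2.75 and 18.1 ± 4.87 FPKM in the same groups. For D-ala against vehicle, Aldh1a1 differed by -0.10 (95% interval -0.42 to 0.23, limma adjusted p = 0.738). Aldh1a7 differed by -0.02 (95% interval -0.38 to 0.34, limma adjusted p = 0.969). Neither passed the test, and the Aldh1a3 difference of -0.90 lies outside both intervals, although the difference between the genes was not itself tested.

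The paralogs varied together from library to library. The lowest and highest D-ala libraries were replicate 4, with 7.43 FPKM of Aldh1a1 and 13.9 of Aldh1a7, and replicate 2, with 13.3 and 25.9. With each group's mean removed, Pearson's r over the 15 libraries was 0.834 (permutation p = 3.8e-04, 100000 permutations within groups, adjusted p = 0.0106 over 28 pairs of members). Spearman's rho was 0.904 (permutation p = 1.8e-04, adjusted p = 0.00504), and r was 0.822 without the 2 libraries farthest from the median of Aldh1a1. No other pair among the 28 passed. The ratio of Aldh1a7 to Aldh1a1 was 1.71 ± 0.196 in vehicle and 1.82 ± 0.202 in D-ala (SD, n = 5), a difference within the spread between libraries (exact two-sided permutation p = 0.421).

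**Figure D2:**
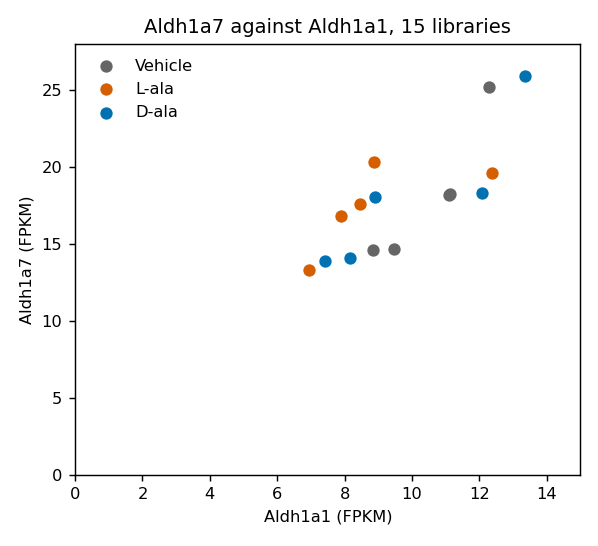
Aldh1a7 (vertical axis, FPKM) against Aldh1a1 (horizontal axis, FPKM); each point is 1 of 15 libraries, coloured by group, and 2 of the vehicle points nearly coincide. The 3 groups are interspersed along a single rising band, from 6.96 and 13.3 FPKM at the lower left to 13.3 and 25.9 FPKM at the upper right.

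The GENCODE M21 messenger RNAs Aldh1a1-206 and Aldh1a7-201 are 89.7% identical over 2015 aligned bases. Of the 2017 windows of 50 bases in Aldh1a7, 151 (7.49%) also occur in Aldh1a1, so reads from them could have been divided between the genes. Only exact matches were counted, so this share does not bound the uncertainty of either level. The part of divided reads in the covariation was not tested. No window of 50 bases is shared between Aldh1a3 and Aldh1a1, Aldh1a7 or Aldh1a2.

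The DNA just before the starts of the paralogs is printed because these genes move together across libraries. RefSeq start windows matched 7 of the 8 members by symbol, with 15 windows in all, on GRCm38.p6. The lines below give the 250 bases before the start, 5′ to 3′, for Aldh1a1 at chr19:20601718-20601967 on the plus strand and for Aldh1a7 at chr19:20727557-20727806 on the minus strand. Capitals mark the longest run that both windows hold letter for letter.
Aldh1a1: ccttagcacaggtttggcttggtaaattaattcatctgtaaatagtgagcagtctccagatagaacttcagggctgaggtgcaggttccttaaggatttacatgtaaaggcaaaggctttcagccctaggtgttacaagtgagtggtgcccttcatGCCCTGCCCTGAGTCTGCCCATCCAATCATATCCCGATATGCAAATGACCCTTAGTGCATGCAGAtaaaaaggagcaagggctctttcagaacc
Aldh1a7: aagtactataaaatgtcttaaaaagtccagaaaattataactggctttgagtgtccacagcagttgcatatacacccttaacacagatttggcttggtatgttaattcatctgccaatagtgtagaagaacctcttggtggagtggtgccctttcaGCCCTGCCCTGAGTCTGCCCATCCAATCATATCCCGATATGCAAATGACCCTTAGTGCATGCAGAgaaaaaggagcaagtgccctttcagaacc

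The shared run is 65 bases long and begins 94 bases before the start in both genes. The windows align over 110 bases, of which 104 (94.5%) are identical. Aldh1a1 has another RefSeq start window, not printed, which aligned with that of Aldh1a7 over 8 bases and lacks the run. The run holds CCAAT, the letters of the CCAAT box, and the octamer ATGCAAAT. Searched on both strands of the 250 bases, ATGCAAAT occurred in 2 of the 15 member windows, these 2, against 1.62% of 32536 windows of the same length over all genes. Both hits lie in the shared run, so they are not separate occurrences and no excess is read from them. CCAAT occurred in 7 of 15 member windows, these 2 among them, against 33.8% of all windows. The retinoic acid receptor motif AGGTCA occurred in 1 of 15 member windows, upstream of Rxra, against 14% of all windows. Pairs of a looser form of this motif, (A or G)G(G or T)TCA, were searched in the same direction, 1, 2 or 5 bases apart. These direct repeats (DR1, DR2 and DR5) occurred in 0 of 15 member windows, against 0.166%, 0.175% and 0.0891% of all windows. Matches are descriptions of letters in these windows and say nothing of what binds there.

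Rbp4 (chromosome 19, 38116629 to 38125281, minus strand), the plasma carrier of retinol, was low and varied more between libraries of one group than between groups. Vehicle libraries read 1.002, 1.06, 0.762, 3.78 and 1.95 FPKM. L-ala libraries read 1.22, 1.07, 1.75, 2.31 and 0.154 FPKM, and D-ala libraries read 4.07, 2.55, 2.40, 0.521 and 1.16 FPKM. D-ala libraries alone ran from 0.521 to 4.07, and of the other libraries 1, L-ala replicate 5, lay outside that range. D-ala minus vehicle was 0.19 (95% interval -0.58 to 0.97, limma adjusted p = 0.780), and D-ala minus L-ala was 0.41 (95% interval -0.36 to 1.18, limma adjusted p = 0.467). The scaled count behind these values was 1 to 30 per library. The values of these libraries do not exclude differences anywhere within those intervals.

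Fat cell markers, set beside Rbp4, also varied widely between libraries of a group. Adipoq, the fat cell hormone adiponectin, read 2.94, 0.746, 0.537, 16.1 and 3.63 FPKM in vehicle. It read 2.15, 3.88, 0.856, 4.99 and 2.38 FPKM in L-ala and 8.70, 22.1, 10.95, 0 and 7.19 FPKM in D-ala. In vehicle and D-ala the lowest Adipoq and the lowest Rbp4 fell in the same library, and in vehicle and L-ala the highest of both did. The orders differed elsewhere: Adipoq was highest in D-ala replicate 2 and Rbp4 in D-ala replicate 1, and L-ala replicate 3 had the lowest Adipoq and the second highest Rbp4 of its group. The summed level of the 9 adipocyte markers was 109 to 485 FPKM in vehicle, 156 to 262 in L-ala and 78.6 to 589 in D-ala, with none of the 9 at 0 throughout a group. The part of fat tissue in the Rbp4 values was not tested.

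Dhrs3 (chromosome 4, 144892827 to 144928209, plus strand), which reduces retinal back to retinol and is a known target of retinoic acid, was the most abundant gene of the set. Vehicle libraries read 116, 112, 121, 98.1 and 136 FPKM, a mean of 117 ± 13.9 (SD, n = 5). L-ala libraries read 144, 133, 154, 139 and 147 FPKM, a mean of 144 ± 8.0, and 4 of the 5 lay above every vehicle library. D-ala libraries read 121, 128, 121, 123 and 139 FPKM, a mean of 127 ± 7.65, between the other groups. D-ala minus vehicle was 0.12 (95% interval -0.03 to 0.28, limma adjusted p = 0.305). D-ala minus L-ala was -0.18 (95% interval -0.34 to -0.02, limma adjusted p = 0.112), which did not pass after adjustment. The L-ala minus vehicle difference, described only, was 0.30 and dropped to 0.14 with quantile normalization.

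Cyp26b1 (chromosome 6, 84571414 to 84593908, minus strand), which breaks down retinoic acid, was below 1 FPKM in every library and was left out of the fit across genes. It read 0.174 ± 0.0542 FPKM in vehicle, 0.214 ± 0.154 in L-ala and 0.355 ± 0.223 in D-ala (SD, n = 5), from scaled counts of 3 to 31. D-ala libraries read 0.327, 0.390, 0.0610, 0.314 and 0.684 FPKM, and 4 of them lay above the highest vehicle library, at 0.268, while the remaining one lay below the lowest. The exact two-sided permutation p was 0.111 between D-ala and vehicle and 0.270 between D-ala and L-ala, where the smallest p that 5 against 5 libraries allow is 0.00794.

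Neither receptor of the set was called in the tested comparisons. Rara (chromosome 11, 98927818 to 98974942, plus strand), the retinoic acid receptor alpha, read 5.69 ± 1.09 FPKM in vehicle, 7.24 ± 0.602 in L-ala and 6.20 ± 0.713 in D-ala (SD, n = 5). The L-ala libraries ran from 6.54 to 8.11 FPKM, and 4 of 5 vehicle libraries and 4 of 5 D-ala libraries lay below all of them. D-ala minus vehicle was 0.12 (95% interval -0.10 to 0.33, limma adjusted p = 0.523), and D-ala minus L-ala was -0.20 (95% interval -0.42 to 0.02, limma adjusted p = 0.207). Rxra (chromosome 2, 27676440 to 27762957, plus strand), the common partner receptor, read 30.1 ± 1.73, 28.7 ± 2.40 and 30.04 ± 1.29 FPKM in vehicle, L-ala and D-ala. Its intervals were the narrowest of the set: -0.13 to 0.13 for D-ala minus vehicle (limma adjusted p = 0.986) and -0.06 to 0.20 for D-ala minus L-ala (limma adjusted p = 0.467).

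Counted over the set, 7 of the 8 members could be tested across genes. For D-ala against vehicle 0 rose and 1 fell (Aldh1a3), where 11.5% of the 11781 tested genes were called, 6.53% higher and 4.92% lower. Aldh1a3 was also the 1 member with an unadjusted p under 0.05, against 26.5% of tested genes, and in 0 of 7 were the groups free of overlap, against 10.9%. The choice of Aldh1a3 favours high values in the vehicle libraries used here too, so nothing is read from its place in these counts. The median difference of the 7 was -0.0027, against 0.0011 over all tested genes. Between D-ala and L-ala, the mirror-image forms, 0 of the 6 members other than Aldh1a3 were called by limma and 1, Dhrs3, had an unadjusted p under 0.05. Over all tested genes 13.7% were called in that comparison, 7.01% higher and 6.66% lower, and 30.8% had an unadjusted p under 0.05. The groups of all 7 members overlapped, where 9.11% of tested genes had none. A p that misses the threshold does not show that D-ala and L-ala act alike on these genes, and the intervals leave room for differences up to 1.18 in the case of Rbp4. For L-ala against vehicle the fit across genes called 2 members, Dhrs3 higher and Aldh1a3 lower, where 11% of tested genes were called, 6.48% higher and 4.53% lower, and 1 (Aldh1a3) had groups without overlap, against 7.24%. The choice of the set fixed the place of Aldh1a3 in these counts, so nothing is read from them. The count of members called became 1 without vehicle replicate 4.

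**Figure D3:**
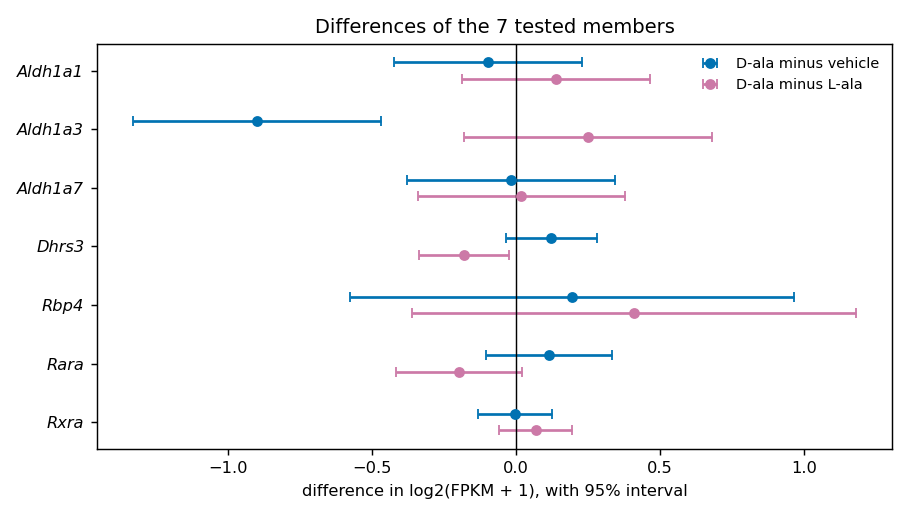
Difference in log2(FPKM + 1) (horizontal axis) of the 7 tested members (vertical axis) for D-ala minus vehicle and D-ala minus L-ala; points are estimates over 5 libraries a group and bars 95% intervals. For D-ala minus vehicle only the interval of Aldh1a3, from -1.33 to -0.47, lies clear of 0, which the choice of this gene favours. Its D-ala minus L-ala value is a description.

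Of 57 further genes of the pathway, 32 were expressed highly enough to be tested. For D-ala against vehicle, 0 rose and 2 fell, both nuclear receptors, and 30 did not pass. By limma 7 of the 32 had an unadjusted p under 0.05, against 26.5% of all tested genes. The median difference of the 32 was -0.07, against 0.0011 over all tested genes. For D-ala against L-ala, 2 were higher (Ncoa3 and Plat), 1 was lower (Rdh14) and 29 did not pass. These counts stand beside 11.5% and 13.7% of all tested genes called. For L-ala against vehicle 1 was higher (Dgat1) and 3 were lower (Scarb1, Ncoa1 and Ncoa3), beside 11%, and nothing is read from that count.

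Among receptors and their cofactors outside the set, 9 of 10 were tested and all 9 differences for D-ala minus vehicle were below 0. The median of the 9 was -0.12, against 0.0011 over all tested genes. By limma 2 had an unadjusted p under 0.05, against 26.5% of tested genes. The L-ala minus vehicle differences, which share the vehicle libraries, were below 0 for all 9 too. Their median was -0.23, against 0.0070, and 6 had an unadjusted p under 0.05 by limma, against 30.5%. This list leaves out the receptors of the set, Rara and Rxra. For D-ala minus vehicle Rara differed by 0.12 and Rxra by -0.0027. In L-ala mean Rara was above vehicle (7.24 against 5.69 FPKM) and mean Rxra slightly below (28.7 against 30.1 FPKM). The list was not tested as a set. Rarb, the retinoic acid receptor beta and itself a classical target of retinoic acid, fell from 2.90 ± 0.551 to 1.89 ± 0.262 FPKM (SD, n = 5). Vehicle libraries of Rarb read 2.63, 2.49, 3.86, 2.85 and 2.67 FPKM and D-ala libraries 1.79, 1.94, 1.53, 1.94 and 2.25, so the groups did not overlap, as was true of 10.9% of tested genes. The difference was -0.43 (SE 0.12, limma adjusted p = 0.0305). The call was lost without vehicle replicate 3 or 4 or without D-ala replicate 1, 2 or 3, at limma adjusted p from 0.0516 to 0.0744. Rxrb, another partner receptor, fell from 20.9 ± 1.65 to 17.1 ± 1.32 FPKM, again without overlap, by -0.27 (SE 0.07, limma adjusted p = 0.0146). Rarg read 4.64 ± 0.708 FPKM in vehicle and 3.80 ± 0.536 in D-ala and did not pass (difference -0.23, limma adjusted p = 0.266).

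Beside Rarb and Aldh1a3, markers of fibroblasts and pericytes also had lower values in D-ala. Their summed level over 7 genes was 24.8 to 43.1 FPKM in vehicle, 19.5 to 39.5 in L-ala and 19.3 to 28.1 in D-ala. The mean log2 level of the list differed by -0.38 between D-ala and vehicle (exact permutation p = 0.0159, adjusted p = 0.119 over 15 lists). Endothelial markers differed by -0.42 (exact permutation p = 0.0317, adjusted p = 0.119), with summed levels over 8 genes of 99.6 to 169 FPKM in vehicle, 63.0 to 140 in L-ala and 71.6 to 106 in D-ala. Macrophage and dendritic cell markers differed by -0.37 (exact permutation p = 0.0238, adjusted p = 0.119), with sums over 8 genes of 138 to 247 FPKM in vehicle, 116 to 201 in L-ala and 101 to 163 in D-ala. Thick ascending limb markers differed by -0.17 (exact permutation p = 0.111, adjusted p = 0.208), with sums over 5 genes of 1897 to 2183 FPKM in vehicle, 1271 to 1736 in L-ala and 1355 to 2068 in D-ala. Distal convoluted tubule markers went the other way, by 0.29 (exact permutation p = 0.00794, adjusted p = 0.119), with sums over 4 genes of 293 to 344 FPKM in vehicle, 355 to 385 in L-ala and 359 to 504 in D-ala. So did proximal tubule markers, by 0.10 (exact permutation p = 0.0556, adjusted p = 0.159), and intercalated cell markers, by 0.14 (exact permutation p = 0.0635, adjusted p = 0.159). Podocyte markers were higher by 0.21 (exact permutation p = 0.103, adjusted p = 0.208). In none of these lists was a marker at 0 throughout a group, and their part in the receptor and Aldh1a3 results was not tested.

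Between D-ala and L-ala, Plat, the tissue plasminogen activator and a retinoic acid target, was higher in D-ala. D-ala libraries read 20.8, 19.2, 19.97, 20.8 and 20.8 FPKM and L-ala libraries 13.9, 12.4, 19.3, 15.5 and 11.5. L-ala replicate 3 alone reached into the D-ala range. The difference was 0.48 (SE 0.12, limma adjusted p = 0.0153). The vehicle mean, 18.1 ± 2.74 FPKM (SD, n = 5), lay between, with 3 vehicle libraries inside the D-ala range and 2 inside the L-ala range. Ncoa3, a receptor coactivator, was higher in D-ala by 0.28 (9.001 ± 0.968 against 7.20 ± 0.456 FPKM, limma adjusted p = 0.0290). Its call was lost without D-ala replicate 3, 4 or 5, without L-ala replicate 1 or 4, and once the trend of differences with gene length was removed (limma adjusted p = 0.135). Rdh14, a retinol dehydrogenase, was lower in D-ala by -0.24 (31.6 ± 1.41 against 37.6 ± 2.97 FPKM, limma adjusted p = 0.0209), and this call was lost without L-ala replicate 4 (limma adjusted p = 0.0586).

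Blood cell markers differed beside these D-ala to L-ala calls. The neutrophil markers, 6 of 7 of them in the table, summed to 2.39 to 11.3 FPKM in D-ala, 13.1 to 34.98 in L-ala and 0.676 to 7.72 in vehicle, with Mpo at 0 in every library. Their mean log2 level was lower in D-ala than in L-ala by -0.70 (exact permutation p = 0.00794, adjusted p = 0.119 over 15 lists), and S100a8 and S100a9, the 2 tested, were both called lower. Red blood cell markers, 8 of 9 in the table, summed to 82.7 to 1132 FPKM in D-ala, 598 to 1705 in L-ala and 42.7 to 623 in vehicle. They differed by -1.22 (exact permutation p = 0.0238, adjusted p = 0.179). The part of these cells in the Plat, Ncoa3 and Rdh14 results was not tested.

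**Figure D4:**
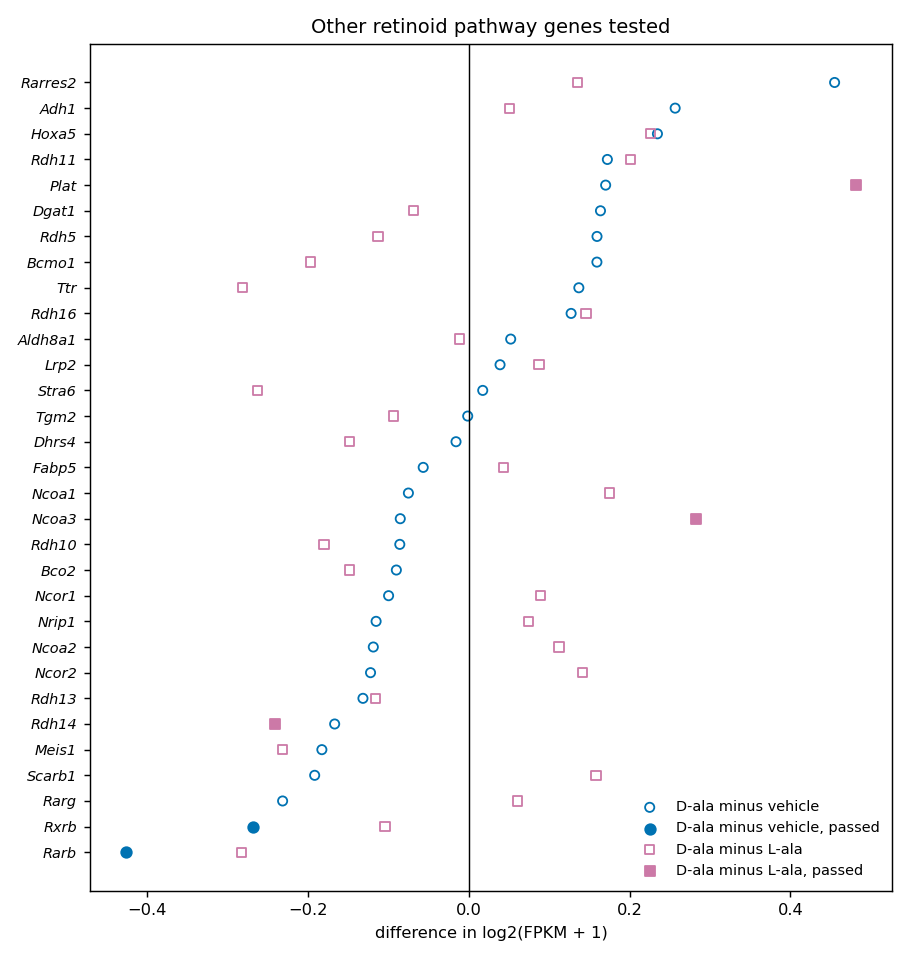
Difference in log2(FPKM + 1) (horizontal axis) of the tested pathway genes outside the set, less 1 that is not shown (vertical axis), ordered by D-ala minus vehicle; circles are D-ala minus vehicle, squares D-ala minus L-ala, and filled symbols passed at a limma adjusted p under 0.05. Rarb and Rxrb are the filled circles at the lower left, and Plat is the filled square farthest to the right, at 0.48.

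The other steps of the pathway held no call for D-ala against vehicle. Over all tested genes 11.5% were called in that comparison and 26.5% had an unadjusted p under 0.05 by limma. The lists are short, so nothing is read from the absence of calls. Of 11 genes of carriers and uptake 6 were tested and 0 were called by limma, with 1 at an unadjusted p under 0.05. Lrp2, the reclaiming receptor, read 127 ± 12.8 FPKM in vehicle, 124 ± 23.4 in L-ala and 130 ± 5.48 in D-ala (SD, n = 5). Ttr, which carries Rbp4 in plasma, varied widely, from 95.9 to 344 FPKM over the libraries. Stra6, a membrane receptor for Rbp4, read 1.60, 2.11 and 1.68 FPKM on average in vehicle, L-ala and D-ala.

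For storage and carotenoid cleavage 3 of 5 genes were tested, and limma called 0 in D-ala against vehicle, with 1 at an unadjusted p under 0.05. For retinol and retinal interconversion 8 of 16 were tested and 0 were called, with 2 at an unadjusted p under 0.05. These counts too stand beside 11.5% of all tested genes called and 26.5% with an unadjusted p under 0.05. Of 2 genes of retinal oxidation outside the set 1 was tested and it was not called. Rdh10, which makes retinal for retinoic acid synthesis, read 22.1 ± 1.5 FPKM in vehicle, 23.8 ± 2.70 in L-ala and 20.8 ± 1.19 in D-ala. Of 18 retinoic acid target genes 9 were tested and 1 fell, Rarb, beside 4.92% of all tested genes called lower. Tgm2, a transglutaminase induced by retinoic acid, read 78.4 ± 5.81, 83.5 ± 2.63 and 78.3 ± 5.22 FPKM in vehicle, L-ala and D-ala, and its D-ala minus vehicle interval was -0.13 to 0.12.

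Several textbook genes of the pathway were too low to test. Aldh1a2, a further retinaldehyde dehydrogenase, read 0.410 to 1.17 FPKM over the 15 libraries. Lrat, which stores retinol as esters, read 0.548 to 1.22 FPKM, and Crabp2, a retinoic acid carrier, 0.282 to 2.04 FPKM. Cyp26a1, which breaks down retinoic acid, stayed at or under 0.249 FPKM, and neither gene of the list for retinoic acid breakdown outside the set could be tested. Crabp1, another retinoic acid carrier, was listed at 0 FPKM in all 5 vehicle libraries and reached 0.364 FPKM in L-ala.

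The genes whose levels ran most like Aldh1a3 over the 15 libraries were Ndrg4 (Pearson's r 0.902), Spon1 (0.898), Ehf (0.893), Muc1 (0.891) and Ptger1 (0.888). These r values describe libraries of 3 groups together and include the differences between groups, so they carry no test. Ndrg4 read 2.89 ± 0.864 FPKM in vehicle, 1.20 ± 0.400 in L-ala and 1.34 ± 0.385 in D-ala (SD, n = 5). Spon1, an extracellular matrix protein, read 3.67 ± 0.732, 1.502 ± 0.322 and 1.68 ± 0.864 FPKM in the same groups. Ehf, an epithelial transcription factor, read 12.4 ± 1.64, 9.44 ± 0.695 and 9.99 ± 1.39 FPKM. Muc1, a mucin of epithelial surfaces, read 11.6 ± 1.38, 8.73 ± 0.810 and 9.70 ± 1.51 FPKM. Ptger1, a receptor for prostaglandin E2, read 9.12 ± 1.15, 5.94 ± 0.623 and 6.34 ± 0.932 FPKM. All 5 were highest on average in vehicle and lowest in L-ala, with D-ala just above L-ala, as was Aldh1a3. D-ala replicate 4 gave the highest D-ala value of Aldh1a3 and of each of these 5 genes. The choice of the 5 by r over these same libraries favours both likenesses, so nothing is read from them.

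**Figure D5:**
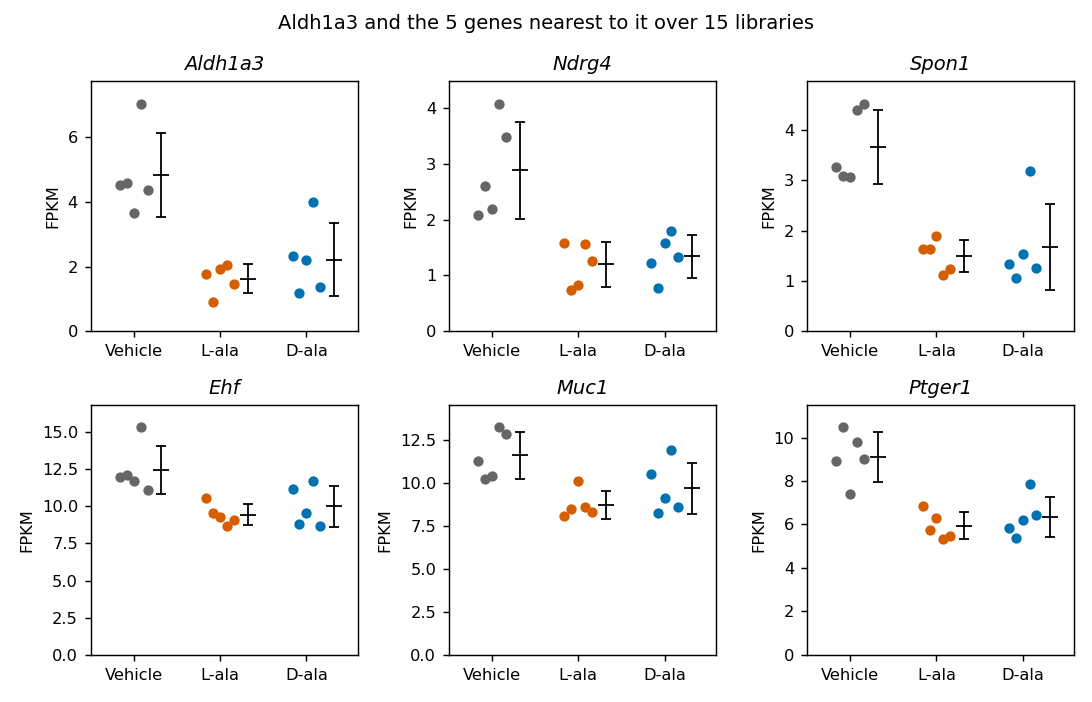
Level in FPKM (vertical axes, linear, from 0) of Aldh1a3 and the 5 genes with the highest Pearson's r to it over 15 libraries, by group (horizontal axes); each point is 1 library and the bar is the mean with its SD (n = 5). In every panel the vehicle mean is the highest, for Aldh1a3 at 4.83 FPKM against 1.62 in L-ala and 2.22 in D-ala. The choice of the 5 genes by r favours this likeness.

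Lists of other epithelia of the collecting system gave these levels beside Aldh1a3. The 7 principal cell markers summed to 552 to 700 FPKM in vehicle, 543 to 662 in L-ala and 522 to 593 in D-ala, and the exact permutation p for their mean log2 level was 0.476 for D-ala against vehicle. That mean joins members called in both directions: Scnn1b and Scnn1g were higher in D-ala, and Aqp2 was lower. The 7 urothelium markers summed to 36.1 to 54.1 FPKM in vehicle, 26.7 to 45.2 in L-ala and 25.7 to 44.8 in D-ala (exact permutation p = 0.865 for D-ala against vehicle). One urothelium marker, Psca, named here after its values were seen, read 25.2 ± 3.72 FPKM in vehicle, 13.02 ± 1.93 in L-ala and 12.7 ± 1.96 in D-ala. Its D-ala minus vehicle difference was -0.94 (limma adjusted p = 1.2e-04), while the other 5 tested urothelium markers were not called and had differences above 0. Without Psca the list summed to 14.98 to 24.9 FPKM in vehicle, 16.1 to 29.7 in L-ala and 10.9 to 32.45 in D-ala. None of the markers in either list was at 0 throughout a group, and the part of these cells in the Aldh1a3 values was not tested.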

How the data were processed

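Kidney messenger RNA was sequenced in 15 libraries. TRIzol extraction and a stranded TruSeq kit were used, per the labels' protocols. Reads were processed with Bowtie2 2.2.3, SAMtools 0.1.19, TopHat2 2.0.13 and build mm10, per the submitters' processing notes, in roles not stated. The program for values per gene, its annotation and its use of strand were not given in the sources used here. The tested values are the FPKM deposited by the authors. A column of log2 values, processed signal per the file headers, lay within 0.0012 of gene-centred log2 FPKM and was not used further. A deposited column headed as count was treated as a score, because its numbers are whole counts rescaled by library and rounded. The scaling factors gave the recovered depth, and it served as an alternative.

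The 11781 of 23284 genes that reached 1 FPKM in at least 5 libraries were fitted as log2(FPKM + 1) with limma 3.58.1 in R 4.3.3, with a mean per group over all libraries, trend and robust moderation, and Benjamini-Hochberg adjustment within each comparison. Calls were made at an adjusted p under 0.05. The fit was also run on simulated data with independent noise for each gene. That run did not cover shifts shared by many genes of a library. Single values were compared by exact two-sided permutation tests. Named genes were the members, textbook pathway genes, pathway genes called in any comparison and the 5 genes most correlated with Aldh1a3, leaving out Gm and Rik models and means under 1 FPKM. Some genes of the lists are counted but not reported here by name. Gene coordinates are from GENCODE M21. The members and gene lists were chosen with earlier results of these data known. Alternatives changed the pseudocount, filter, scaling, groups fitted, moderation or value column, or left out 1 library.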

Additional observations from a re-analysis of the deposited data

Results flagged for a closer look

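In 99 sets of 5 libraries (33 genes in 3 groups), the gap between the most extreme library and its nearest neighbour was compared with the range of the set. The gap exceeded 0.71 of the range in 11 sets, where chance alone gives about 1 in 20.

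In vehicle, Aldh1a3 reached 7.036 FPKM in replicate 4 against a median of 4.53, and Ehf, one of the genes most like it, reached 15.3 FPKM in the same library. Cyp26b1 reached 0.268 FPKM in vehicle replicate 1, Rarb 3.859 FPKM in vehicle replicate 3 and Crabp2 2.035 FPKM in vehicle replicate 5. In L-ala, Lrp2 reached 165.03 FPKM in replicate 5 against a median of 116, and Muc1 reached 10.138 FPKM in replicate 3. In D-ala, Spon1 reached 3.189 FPKM in replicate 4, where Aldh1a3 was also highest, and Crabp1 was listed at 0.184 FPKM in replicate 1 and at 0 in the others. Lrat reached 1.224 FPKM and Scarb1 6.435 FPKM, both in D-ala replicate 3. No cause was tested for these values.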

How the results depend on the processing

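No result turned its direction under an alternative where it was called. For the tested members, all 322 refits of the tested comparisons kept the side of the threshold, leaving out Aldh1a3 in D-ala against L-ala, which is not tested. Aldh1a3 in D-ala against vehicle ran from -1.21 to -0.88 over the 9 alternatives that keep all libraries and from -1.07 to -0.77 without 1 library, at limma adjusted p from 0.00128 to 0.0306. It was not testable at 1 FPKM in all 15 libraries, since 1 L-ala library was at 0.910 FPKM, and the count of members called there was 0. The members called in L-ala against vehicle were 2, and 1 at 1 FPKM in all 15 libraries, with quantile normalization, with only the 2 groups compared and with the trend with gene length removed. Without 1 library they were 1 to 3. That removal of a length trend was chosen after seeing the data. Pathway genes called in L-ala against vehicle were 4, 2 with quantile normalization, 1 with the length trend removed and 2 to 5 without 1 library (2 without L-ala replicate 1). For D-ala against vehicle they were 2, and 1 to 3 without 1 library. For D-ala against L-ala they were 3, and 1 (without L-ala replicate 4) to 6 (without L-ala replicate 5) without 1 library. The cause was not tested. Among other named genes 34 of 996 refits of the tested comparisons changed a call, in 9 genes.

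Over all tested genes, L-ala against vehicle had 1297 calls, 575 with quantile normalization, 603 with only the 2 groups compared, 746 with the length trend removed, and 321 (without vehicle replicate 4) to 2580 (without L-ala replicate 5) without 1 library. D-ala against L-ala had 1611, 975 with only the 2 groups compared, and 770 (without L-ala replicate 4) to 2761 (without L-ala replicate 5). D-ala against vehicle had 1349, and 812 (without vehicle replicate 4) to 1592. Quantile normalization moved the share of higher calls from 57.0% to 46.95% for D-ala against vehicle and from 58.8% to 40.7% for L-ala against vehicle. No paired analysis was possible because the labels give no replicate numbers shared between groups. Rbp4 and Cyp26b1 rest on scaled counts of at most 31 per library, and the part of depth in their spread was not tested.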
